A study of Mus musculus with 10 samples.

Results

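After knockdown of hexokinase 1 (HK1), 68994 regions of chromatin were kept for the transcription factors c-JUN, SMAD3 and NFATC2 in mouse cardiac fibroblasts treated with TGF-β, out of 200390 regions listed in the 3 tables of these factors. A region was kept where a peak was marked as called in the siHK1 library of that antibody and at least 5 siHK1 reads lay in it. This left 44593 JUN regions of 72990 listed, 15042 SMAD3 regions of 58633 and 9359 NFATC2 regions of 68767. The factors were then compared with each other by where their regions overlapped, where the regions lay relative to genes, which genes they were assigned to, and which short sequences they held.

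The cells were fibroblasts of the mouse heart, grown as primary culture, and the assay was CUT&Tag, which recruits a DNA-cutting and tagging enzyme to antibody-bound sites before sequencing. Of the 10 libraries in the series, 3 are compared here: SIHK1-JUN, SIHK1-SMAD3 and SIHK1-NFATC2, all from cells given an siRNA against HK1 and then TGF-β. The TGF-β libraries of the same antibodies (TGF-JUN, TGF-SMAD3, TGF-NFATC2) and the library of lactylated histone H3 lysine 9 from siHK1 cells (SI H3K9LC) served as other readouts. The series comprised 1 library per antibody and condition, so no test was made, and the 95% intervals given (exact binomial for shares, exact Poisson for reads) cover counting error only, because reads can be PCR copies of 1 molecule and regions do not replicate a condition. The labels give no strain, age or sex, and these libraries hold no RNA with which the knockdown could be checked.

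TGF-β binds a receptor complex that phosphorylates SMAD2 and SMAD3, which then enter the nucleus with SMAD4 and bind DNA weakly, usually beside other factors. c-JUN is a subunit of AP-1, a dimer with FOS or other JUN family members that recognises a short palindrome and opens many enhancers of fibroblasts. NFATC2 is held in the cytoplasm until the phosphatase calcineurin removes its phosphates, and in the nucleus it can bind composite sites with AP-1. All of these routes are known to feed the conversion of cardiac fibroblasts into contractile, matrix-producing myofibroblasts. HK1 carries out the entry step of glycolysis, the pathway that yields the lactate from which histone lactylation is made.

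The sequences below show the AP-1 letters, TGANTCA, in regions on which the comparison turns. They are read from the forward strand of the RefSeq sequence of GRCm38, and the capitals mark the AP-1 letters. Pdlim7, Tmbim1, Samd4 and Rara were the nearest genes of places where all 3 factors had kept regions, and these were the windows at chr13:55510739-55510767, chr1:74295777-74295805, chr14:46989794-46989822 and chr11:98942761-98942789.
Pdlim7: atgggtgtgggTGAGTCAgcctgggagct
Tmbim1: gcgcttcctggTGAGTCAcagggctggcc
Samd4: attcctgactcTGACTCAttcagcttttc
Rara: gagcctctcccTGATTCAgcaagccctgt

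The next set lies in the most-read JUN regions of Klf6, Eya4 and Elmo1, genes at the JUN end of the comparison, at chr13:6192091-6192119, chr10:23177764-23177792 and chr13:20386888-20386916. None of these regions overlapped a kept region of SMAD3 or NFATC2. Lclat1 and Mir6390, also at this end, are not printed, and their most-read JUN regions hold the AP-1 letters too. The region of Mir6390 overlapped SMAD3. That of Lclat1 overlapped neither factor but overlapped a region of lactylated histone H3 lysine 9.
Klf6: caaaacaggctTGACTCAtcccttgctgt
Eya4: ctcagacactaTGATTCAccctttgtaga
Elmo1: ctttggaagtgTGAATCAtatttttcctt

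The last set lies in JUN or SMAD3 regions that overlap a region of the other factor, at genes of fibrosis and TGF-β signalling and at Hk1, at chr19:34255181-34255209 (Acta2), chr11:94928165-94928193 (Col1a1), chr2:173263790-173263818 (Pmepa1) and chr10:62300347-62300375 (Hk1). The letters lay inside the most-read regions of both JUN and SMAD3 at Pmepa1 and Hk1. At Acta2 and Col1a1 they lay in the JUN region but outside the most-read SMAD3 region.
Acta2: ttcaaaacacgTGAGTCAttcagattccc
Col1a1: acattcccagaTGACTCAcaagcctggaa
Pmepa1: tcctcaagacaTGACTCAcatctgtctgg
Hk1: tggaggggaccTGACTCActgctggggtt
The letters were not found in the most-read JUN regions of Postn, Col1a2 and Cdk1, of which that of Col1a2 overlapped SMAD3 as well, nor in the most-read SMAD3 region of Smurf2.

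The libraries differed in the number of reads in kept regions and in how these were spread. The kept regions held 1974129 JUN reads over 26.9 Mb, 302816 SMAD3 reads over 6.43 Mb and 230532 NFATC2 reads over 3.65 Mb. These were 86.9%, 75.7% and 65.0% of the reads in all listed regions; library depths were not given in the sources used here. The median kept region held 28 JUN reads, 7 SMAD3 reads or 6 NFATC2 reads, so the limit of 5 reads cut deeply into SMAD3 and NFATC2 and hardly into JUN. It removed 524 of 45117 called JUN regions, 15828 of 30870 called SMAD3 regions and 30278 of 39637 called NFATC2 regions. Just inside the limit, 720 JUN, 3329 SMAD3 and 3186 NFATC2 regions held 5 reads, and just outside it 346, 4436 and 5484 called regions held 4. A further 19338, 2872 and 2528 regions held at least 5 reads without a called peak in the siHK1 library and were left out by the rule.

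A few places took much of the SMAD3 and NFATC2 signal. The 10 most-read regions held 2.71% of kept JUN reads, 26.4% of kept SMAD3 reads and 34.3% of kept NFATC2 reads, and the 100 most-read regions held 5.82%, 47.6% and 61.7%. The most-read region was the same in the 3 libraries, an exon of Lrrc4c in the annotation at chr2:98666245-98667321 in JUN, with 13901 JUN reads, 19534 SMAD3 reads and 17975 NFATC2 reads in the matching regions. Next came regions assigned to Col19a1 between chr1:24611631-24616138, where every 25-base word of the sequence also occurs in the mitochondrial genome. Because of this, regions with at least 10 times the median reads per kb of their own list in any of the 3 factors were marked as dense, a definition made after the values were seen.

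**Figure D1:**
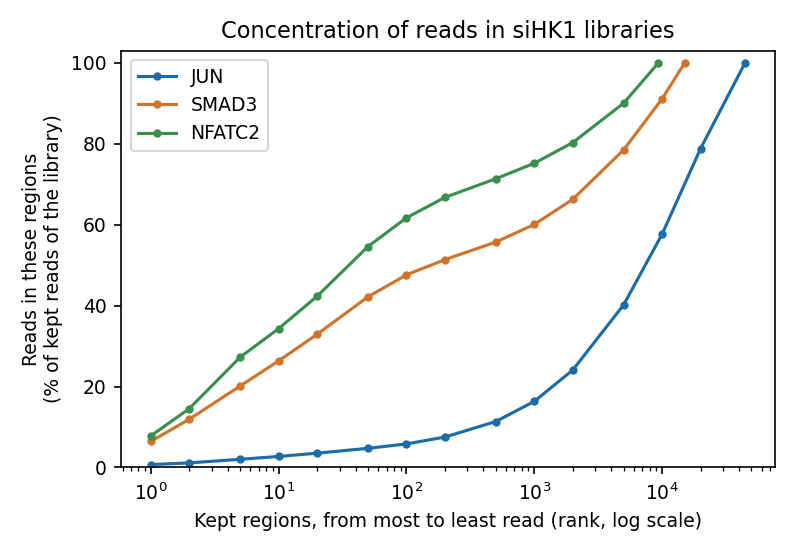
Cumulative share of kept reads (y axis, % of the reads in the kept regions of each library) against the number of regions, ranked from most to least read (x axis, log scale), with 1 line per factor in the siHK1 libraries. At 100 regions the lines stand at 5.82% for JUN, 47.6% for SMAD3 and 61.7% for NFATC2.

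There were 172 dense places. They covered 155 JUN, 151 SMAD3 and 164 NFATC2 regions, which is 0.348%, 1.004% and 1.75% of each list, and they held 5.87%, 48.2% and 63.8% of the kept reads. In 109 of the 172 places over 50% of the bases are soft-masked as repeats in the reference, and in 8 others over 50% of the sequence matches mitochondrial 25-base words. The mitochondria-like places alone held 1.27% of JUN reads, 13.6% of SMAD3 reads and 19.4% of NFATC2 reads. H3K9lc had a kept region at 86.5% of the dense JUN regions, 88.7% of the dense SMAD3 regions and 90.2% of the dense NFATC2 regions. Most dense places were thus common to 4 antibodies, and overlaps, placement, gene counts and leading genes are given below with and without them. Their part in the comparisons between factors was measured by leaving them out.

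As a share of the shorter list, overlap was largest between SMAD3 and JUN at the limit of 5 reads. Of the 15042 SMAD3 regions, 6754 overlapped a JUN region by at least 1 bp (44.9%, 95% interval 44.1 to 45.7), and of the 44593 JUN regions, 6668 overlapped a SMAD3 region (15.0%, 14.6 to 15.3). NFATC2 shared 2918 of its 9359 regions with JUN (31.2%, 30.2 to 32.1), which were 6.52% of the JUN list. NFATC2 shared 2276 regions with SMAD3 (24.3%, 23.5 to 25.2), which were 15.1% of the SMAD3 list. Without dense regions these shares of the shorter lists were 44.4%, 30.2% and 23.2%. The order of the pairs was not fixed. When each list was cut to its 9359 most-read regions, which changes both the length of the lists and the reads of their regions, the shared part was 29.0% for SMAD3 with JUN, 14.2% for NFATC2 with JUN and 22.3% for NFATC2 with SMAD3, so that NFATC2 then shared more with SMAD3 than with JUN. Among regions of 20 reads or more, NFATC2 with SMAD3 led at 76.5%, followed by SMAD3 with JUN at 70.1% and NFATC2 with JUN at 66.3%. Kept regions were also set against every listed region of the other table, called or not. On that count 57.2% of SMAD3 regions and 41.7% of NFATC2 regions met a JUN region.

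The merged lists formed 58537 places. JUN alone accounted for 36608 places, SMAD3 alone for 7535 and NFATC2 alone for 5683. JUN with SMAD3 held 5066 places, JUN with NFATC2 1309 and SMAD3 with NFATC2 745. All 3 factors met at 1591 places, 2.72% of the total, and 130 of these were dense. H3K9lc was kept at 30.4% of the places with all 3 factors, at 25.4% of those with SMAD3 and NFATC2 and at 4.34% of those with JUN and SMAD3, against 1.42% of the places of JUN alone.

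**Figure D2:**
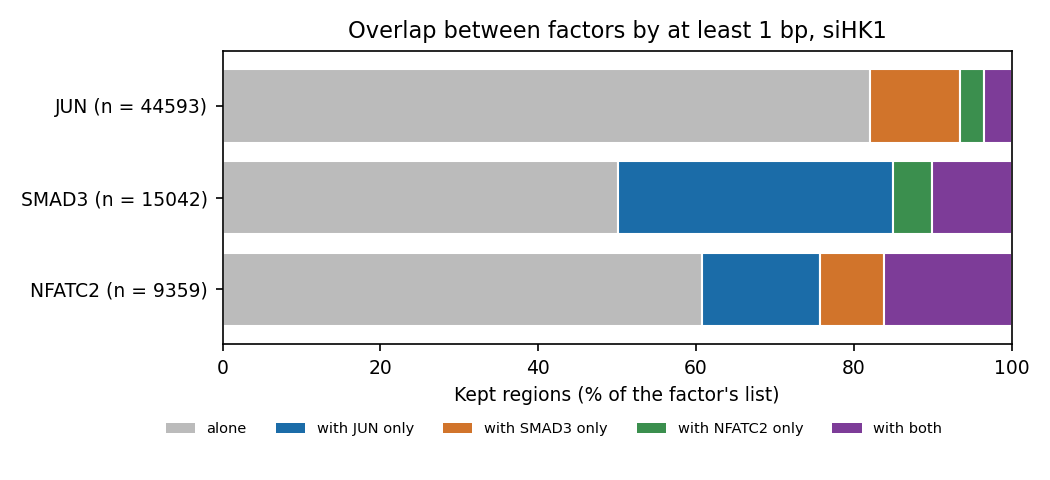
Kept regions of each factor by their overlap with the other factors (x axis, % of the factor's list; 1 bar per factor, 1 colour per class of overlap) in the siHK1 libraries. Regions without a partner were 82.1% of the JUN list, 50.1% of the SMAD3 list and 60.7% of the NFATC2 list, and regions with both partners were 3.57%, 10.1% and 16.2%.

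Regions with more reads were shared more often in each list. When JUN regions were put in quintiles by their reads, 5.22% of the lowest quintile (5 to 13 reads) and 33.4% of the highest quintile (61 reads or more) overlapped SMAD3. The overlap of JUN with NFATC2 went from 3.41% to 14.4% in the same quintiles. Of the SMAD3 regions, 20.8% of the lowest quintile and 72.0% of the highest overlapped JUN, and 2.39% and 44.4% overlapped NFATC2. Of the NFATC2 regions, 14.6% and 58.7% overlapped JUN, and 6.84% and 63.7% overlapped SMAD3. The lowest quintiles of SMAD3 and NFATC2 consisted of regions with 5 reads, the smallest number the rule admits. JUN regions shared with SMAD3 held a median of 53 reads and were 766.5 bp wide, against 25 reads and 521 bp for those not shared, so width and reads moved together with sharing and their parts were not told apart.

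**Figure D3:**
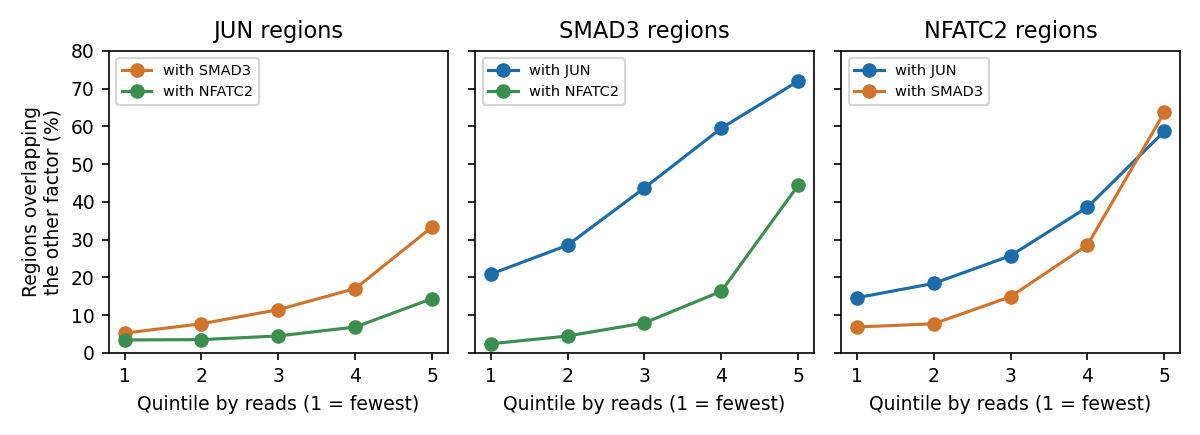
Share of kept regions that overlap another factor (y axis, %) by quintile of the reads in the region (x axis, 1 for the fewest reads), with 1 panel per factor and 1 line per partner. The lines rise in every panel, and in the quintile with the most NFATC2 reads the share with SMAD3, 63.7%, lies above the share with JUN, 58.7%.

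Where all 3 factors met, SMAD3 and NFATC2 levels went together and JUN levels did not follow them. Over the 1591 places, Spearman's rho of reads per kb was 0.78 between SMAD3 and NFATC2, 0.15 between JUN and SMAD3 and 0.08 between JUN and NFATC2. Over the 1100 of these places that were neither dense nor kept for H3K9lc, the values were 0.56, 0.06 and -0.06. The points are places in the same 3 libraries, share their width and their base composition across factors, and are not independent replicates, so these are descriptions.

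The highest shared places were dense. Ordered by the smallest of their 3 shares of reads, the top 5 were a pair of places assigned to Col19a1, Lrrc4c, Rn45s (the precursor of ribosomal RNA) and Fgf14. The first place that was neither dense nor kept for H3K9lc had rank 56, at chr13:55510442-55511669, 1040 bp from a start site of Pdlim7, a PDZ and LIM domain protein of the actin cytoskeleton. It held 403 JUN reads, 53 SMAD3 reads and 38 NFATC2 reads, or 2.04, 1.75 and 1.65 per 10000 kept reads of each library. Tmbim1 followed with 463, 37 and 32 reads at its start site, and Mid1, a ubiquitin ligase, with 232, 45 and 31 reads in an intron. Samd4 held 300, 47 and 27 reads in an intron, and Cic, a transcriptional repressor, 219, 32 and 26 reads at its start site. Rara, the retinoic acid receptor alpha, held 240, 38 and 24 reads, and Fstl1, a secreted glycoprotein of fibroblasts, 401, 33 and 22 reads. These places were chosen for being high in all 3 factors, so their levels are a description. Of the 8 places listed in this way, the part common to all 3 regions held AP-1 letters in 4 (Pdlim7, Tmbim1, Samd4 and Rara, printed above) and held none at Mid1, Cic, Tex44 and Fstl1.

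SMAD3 regions lay nearest to genes. A promoter, defined in the annotation as within 3 kb of a start site, held 31.3% of SMAD3 regions (30.5 to 32.0), 25.6% of JUN regions (25.2 to 26.0) and 24.3% of NFATC2 regions (23.5 to 25.2). Within 1 kb the shares were 23.4%, 18.7% and 15.8%. Introns held 32.9%, 34.9% and 35.4%, and distal intergenic sequence 30.5%, 33.3% and 34.9%. The median distance to the nearest start site was 10781 bp for SMAD3, 14756 bp for JUN and 14003 bp for NFATC2. A start site lay inside the region itself for 12.9% of JUN, 12.3% of SMAD3 and 7.26% of NFATC2 regions; JUN regions were also wider, with a median of 551 bp against 375 and 338 bp. For comparison, 6.27% of H3K9lc regions kept by the same rule lay at promoters and 64.9% were distal intergenic.

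Weighted by reads, the order changed. Promoters then held 24.3% of JUN reads, 19.1% of SMAD3 reads and 12.3% of NFATC2 reads. Exons took 7.67%, 31.7% and 39.9% of the reads, since the places at Lrrc4c and Col19a1 are annotated as exonic. Outside dense regions the promoter shares of reads were 25.4%, 33.6% and 24.6%, and exons held 4.85%, 3.32% and 3.45%, so that the weighting by reads alone did not move SMAD3 below JUN.

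Shared regions were more often promoters when JUN was a partner. Of SMAD3 regions without a partner, 24.5% were promoters (23.5 to 25.4), and of those overlapping JUN only, 40.1% (38.8 to 41.4). With NFATC2 only as partner the share was 19.4% (16.6 to 22.4). Of NFATC2 regions, 17.8% were promoters without a partner (16.9 to 18.9), 36.3% with JUN only and 19.1% with SMAD3 only (16.4 to 22.1). Of JUN regions, 22.5% were promoters without a partner, 40.3% with SMAD3 only, 35.7% with NFATC2 only and 40.9% with both. Read from the other side, 57.7% of SMAD3 promoter regions overlapped JUN, against 39.0% of distal intergenic and 39.2% of intronic SMAD3 regions. The matching values for NFATC2 with JUN were 49.1%, 24.3% and 25.8%.

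The AP-1 letters separated JUN from the other factors. The letters TGANTCA, which read the same way on both strands, were found in the central 200 bp of 32.6% of JUN regions (32.2 to 33.0), against 6.04% of windows of the same length placed 5 kb to either side. In SMAD3 regions they were found in 8.97% (8.52 to 9.44) against 5.77% of flanking windows, and in NFATC2 regions in 7.48% (6.95 to 8.03) against 5.40%. JUN regions with more reads held them more often, from 19.8% of the lowest quintile to 41.6% of the highest. For SMAD3 these quintiles gave 7.41% and 9.41%. For NFATC2 the lowest quintile gave 6.57%, the fourth 9.56% and the highest 5.50%. NFATC2 regions of 20 reads or more held the letters in 2.81% (1.65 to 4.46) against 4.71% of flanking windows. Promoter regions of JUN held the letters in 19.8% and the other JUN regions in 37.0%.

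In SMAD3 and NFATC2 regions the AP-1 letters were more frequent than in flanking windows where a JUN region overlapped and less frequent where none did. SMAD3 regions with JUN held them in 14.3% (13.5 to 15.2) against 5.94% of their flanking windows. SMAD3 regions without JUN held them in 4.61% (4.17 to 5.08) against 5.62%. For NFATC2 the values were 14.4% (13.2 to 15.8) against 5.19% with JUN, and 4.33% (3.85 to 4.86) against 5.50% without JUN. Outside promoters the same split was 18.5% and 4.89% for SMAD3 and 17.6% and 4.35% for NFATC2. JUN regions moved the other way: 35.0% of those without a partner held the letters, against 13.5% of those with both partners, and outside promoters 38.3% of those without SMAD3, against 27.7% of those with SMAD3. The places that the 3 factors shared were therefore poorer in AP-1 letters than the places of JUN alone.

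**Figure D4:**
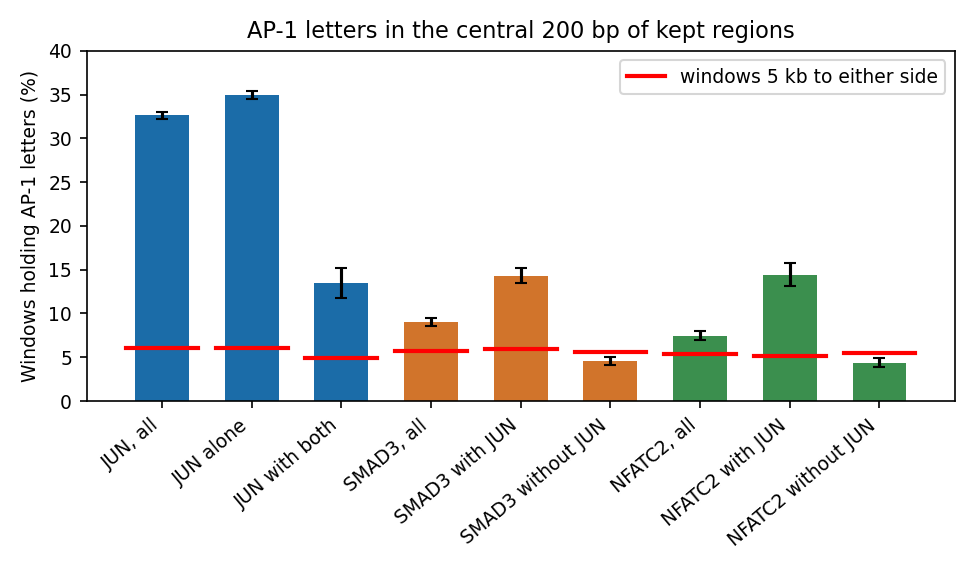
Share of kept regions whose central 200 bp hold the AP-1 letters (y axis, %; bars with exact 95% binomial intervals), by factor and by overlap, with the share in windows 5 kb to either side as a red line. JUN regions alone stand at 35.0%, SMAD3 regions at 14.3% with JUN and 4.61% without, and NFATC2 regions at 14.4% and 4.33%.

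Letters known from SMAD and NFAT sites did not set their own factor apart in this way. CAGAC, counted with its reverse complement GTCTG, was found in 41.0% of SMAD3 regions (40.2 to 41.8), 43.0% of JUN regions and 38.7% of NFATC2 regions, with 38.2%, 37.0% and 37.2% in flanking windows. SMAD3 regions outside promoters held it in 45.2% with JUN and 39.2% without JUN. TGGAAA, counted with TTTCCA, was found in 11.5% of NFATC2 regions (10.9 to 12.2) against 18.1% of their flanking windows, in 13.4% of SMAD3 regions against 17.7%, and in 18.05% of JUN regions against 18.7%. No motif of the 3 contains another, but their ends can overlap (the CA that ends TGANTCA can begin CAGAC), and each was counted on its own. NFATC2 regions held more repeat sequence than the others, with a mean of 34.1% of soft-masked bases over the whole region. The mean was 24.9% in SMAD3 and 14.5% in JUN regions, and the part of repeats in the motif shares was not tested. A match here is a match of letters in a window and was not read as a bound site.

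Genes were assigned by the nearest start site of the deposited annotation, giving 14424 symbols for JUN, 8878 for SMAD3 and 6332 for NFATC2. JUN and SMAD3 shared 7600 symbols (52.7% of the JUN symbols and 85.6% of the SMAD3 symbols), JUN and NFATC2 5343 (37.0% and 84.4%), and SMAD3 and NFATC2 4153 (46.8% and 65.6%). Symbols were thus shared more often than regions, but the JUN list reached 14424 symbols. The share of all annotated genes with a JUN region was not measured, so nothing is read from this difference. The share of a gene was set as its reads per 10000 kept reads of the library, and ratios were formed for genes whose mean share was worth at least 10 reads in the library with fewer kept reads. On all kept reads, a share at least 2-fold higher in JUN than in SMAD3 was found for 3165 of 6308 genes (50.2%), and the reverse for 956 (15.2%). JUN was 2-fold above NFATC2 for 3020 of 4555 genes (66.3%), with the reverse for 545 (12.0%), and SMAD3 was above NFATC2 for 1009 of 2889 (34.9%), with the reverse for 383 (13.3%). Within 3 kb of a start site fewer genes could be compared and the larger side turned in each pair, with 314 genes higher in JUN and 522 in SMAD3, 69 in JUN and 171 in NFATC2, and 53 in SMAD3 and 89 in NFATC2.

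The imbalance was tied to the dense regions, which lower every other share in SMAD3 and NFATC2. Without them, JUN was above SMAD3 for 1263 of 4756 genes (26.6%) and SMAD3 above JUN for 1358 (28.6%). JUN was above NFATC2 for 672 of 2303 genes (29.2%) and NFATC2 above JUN for 773 (33.6%). SMAD3 was above NFATC2 for 405 of 2189 genes (18.5%) and NFATC2 above SMAD3 for 550 (25.1%). Of these genes, the lower factor had no kept read for 294 and 93, 200 and 42, and 105 and 64, in that order. With regions overlapping H3K9lc left out too, the percentages were 23.3% and 29.2% for JUN and SMAD3, 23.2% and 36.4% for JUN and NFATC2, and 18.5% and 30.0% for SMAD3 and NFATC2. The median log2 ratio over the genes compared was taken on all kept reads and without dense regions alone. It went from 1.01 to 0.00 for JUN over SMAD3, from 1.85 to -0.11 for JUN over NFATC2 and from 0.40 to -0.24 for SMAD3 over NFATC2. With H3K9lc regions left out too, the medians were -0.16, -0.35 and -0.33. Gene shares below are therefore per 10000 kept reads outside dense regions unless stated. On all kept reads the shares of the signalling, fibrosis and fibroblast marker lists below were highest in JUN and lowest in NFATC2.

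On all kept reads, the 8 symbols with the largest shares were nearly the same in the 3 libraries and named the dense places. Col19a1 took 113 per 10000 JUN reads, 1216 per 10000 SMAD3 reads and 1769 per 10000 NFATC2 reads. Lrrc4c took 86.2, 776 and 991, and Mir101c near the start of the chromosome 9 sequence, 77.8, 797 and 967. Gm5458, Fgf14 and Mrgprd were among the first 8 of all 3 libraries, Rn45s of JUN and NFATC2, 9230019H11Rik of SMAD3 and NFATC2, and Pisd-ps2 of SMAD3. Pvt1 was the exception in JUN, with 13.5 in JUN, 2.31 in SMAD3 and 0.95 in NFATC2.

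Outside dense regions the leading genes of JUN held 16 to 37 regions each. Pvt1, a long non-coding RNA gene beside Myc, held 2658 JUN reads in 37 regions, or 14.3 per 10000, against 4.47 in SMAD3 and 2.64 in NFATC2. Elmo1, a regulator of RAC signalling and cell migration, held 11.4, against 2.93 and 0.60. Asap1, a regulator of ARF proteins at focal adhesions, held 10.7, against 3.38 and 1.32. Klf6, a zinc finger factor, held 10.1, against 2.87 in SMAD3 and no kept read in NFATC2. Dusp10, a phosphatase of the kinases that act on JUN, held 10.2, against 5.74 and 3.24. Irf2bp2, Gm19510 and Glis3 were the others of the first 8, with 10.7, 10.6 and 9.50 in JUN.

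The leading genes of SMAD3 and NFATC2 outside dense regions were of another kind, and the lists of both factors resembled each other. Sfi1, which encodes a centrosomal protein, held 3.41 in JUN, 133 in SMAD3 and 108 in NFATC2. Pisd-ps1 held 3.98, 67.7 and 97.7, and Pisd-ps2 3.87, 63.6 and 101. The vomeronasal receptor gene Vmn1r2 held 1.32, 58.8 and 92.2, and the olfactory receptor gene Olfr161 held 3.73, 51.9 and 116. 1700020D14Rik held 1.53, 62.6 and 82.6, and Trpm1 4.67, 36.8 and 55.9. Atg7 completed the SMAD3 list with 27.2 and Apba2 the NFATC2 list with 35.2. Reads of repeated or duplicated loci may have been placed on any copy, so these shares are uncertain.

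Among the largest ratios on all kept reads, the most-read JUN regions met no listed region of the factor compared, whereas most SMAD3 and NFATC2 regions met listed regions of JUN that had no called peak. Lclat1, an acyltransferase, held 921 JUN reads and no kept SMAD3 read, with 12 SMAD3 reads in all listed regions. Pabpc2 held 881 JUN reads, with 5 listed SMAD3 reads, and Eya4, a transcriptional coactivator, 799 JUN reads, with 17 listed SMAD3 reads. Against NFATC2 the largest JUN ratios were at Klf6, with 1879 JUN reads and 19 listed NFATC2 reads, at Mir6390, with 1271 and 8, and at Elmo1, with 2118 JUN reads and 5 kept NFATC2 reads. The most-read JUN region of Klf6 lay 326932 bp from its start site, so the name of the gene is that of the nearest start only.

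In the other direction, Snrnp70, a protein of the U1 spliceosome particle, held 79 SMAD3 reads in 1 region at its start site, chr7:45395285-45396425, where the JUN table listed 41 reads without a called siHK1 peak. Dux, a repeated homeobox locus, held 84 kept SMAD3 reads and 73 kept NFATC2 reads, with 50 listed JUN reads. Gm3376 held 91 NFATC2 reads in a dense region of chromosome Y, with 76 listed JUN reads, and Epha5 57 kept NFATC2 reads, with 22 listed JUN reads. Between SMAD3 and NFATC2, Ppa2 held 95 kept SMAD3 reads against 24 listed NFATC2 reads, Gadd45g, a stress-induced gene, 83 against 26, and P2ry6, a nucleotide receptor, 79 against 49. Ptchd3 held 138 kept NFATC2 reads, 133 of them in a dense region, against 195 listed SMAD3 reads. No fold is given for these genes, since the lower factor had listed reads that the rule left out.

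Myh6, the alpha myosin heavy chain of cardiomyocytes, and Mhrt, a long non-coding RNA gene of the same locus, show a limit of the nearest-gene names. Myh6 held 75 SMAD3 reads and no kept JUN or NFATC2 read, whereas Mhrt held 25 JUN reads, 71 NFATC2 reads and no kept SMAD3 read. The SMAD3 region of 70 reads at chr14:54966728-54968437 was named Myh6, and it overlapped the NFATC2 region of 52 reads at chr14:54967057-54968560 and the JUN region of 25 reads, both of which were named Mhrt. A single place was thus counted under different genes. Such a difference of names occurred in 126 of 6768 overlapping pairs of JUN and SMAD3 regions (1.86%), in 47 of 2931 pairs of JUN and NFATC2 (1.60%) and in 28 of 2286 pairs of SMAD3 and NFATC2 (1.22%).

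Outside dense regions genes of TGF-β feedback and response took a larger share in SMAD3 than in JUN, and on all kept reads a smaller one. The 18 genes of this list held 33.6 per 10000 reads in JUN, 50.3 (46.8 to 53.9) in SMAD3 and 30.5 (26.9 to 34.5) in NFATC2. With dense regions counted in the totals, the shares were 31.6, 26.03 and 11.02, and over all listed regions 33.2, 24.97 and 14.8, so that JUN was then highest. Of the 13 members that could be compared, 5 were at least 2-fold higher in SMAD3 than in JUN and 1 in JUN, and the median log2 ratio of JUN over SMAD3 was -0.82, against 28.6% and 26.6% called and a median of 0.00 over all genes. Pmepa1, a membrane protein that restrains TGF-β receptors, held 1133 JUN reads, 169 SMAD3 reads and 21 NFATC2 reads, or 6.11, 10.8 and 2.52 per 10000. Its most-read SMAD3 region, an intronic region of 56 reads at chr2:173263491-173264462, coincided with its most-read JUN region of 274 reads and holds the AP-1 letters printed above. Smurf2, a ubiquitin ligase that targets SMADs and the receptors, held 257, 117 and 44 reads, or 1.38, 7.46 and 5.28. Its most-read region in each factor was distal intergenic and upstream, and that of SMAD3, of 53 reads at chr11:106943751-106945513, overlapped a JUN region and held none of the AP-1, SMAD or NFAT letters.

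The genes of the pathway core and of AP-1 had their lowest shares in NFATC2. TGF-β ligands, receptors and SMADs held 20.2 in JUN, 17.7 in SMAD3 (15.7 to 19.9) and 8.04 in NFATC2 (6.23 to 10.2). Smad3 itself held 7.06, 5.10 and 0.96, from 1310, 80 and 8 reads, and Tgfbr3, a co-receptor, 4.29, 1.91 and 0.60. The AP-1 family held 14.8, 17.0 (15.05 to 19.2) and 7.68 (5.92 to 9.81), and on all kept reads 13.9, 8.82 and 2.78, so that the order of JUN and SMAD3 turned with the scaling. Within it Jun held 3.03, 2.81 and 1.20, and Fos 1.65, 4.34 (3.37 to 5.50) and 2.16 (1.28 to 3.42). The most-read SMAD3 region of Jun covered its start site with 25 reads and overlapped a JUN region of 165 reads.

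NFATC2 did not stand above the others at the genes of its own pathway. NFAT and calcineurin genes held 21.8 per 10000 reads in JUN, 14.4 (12.5 to 16.4) in SMAD3 and 11.05 (8.90 to 13.5) in NFATC2, so the last 2 intervals overlap. Nfatc2 held 7.29, 4.72 and 3.36, from 1353, 74 and 28 reads. Nfatc1 held 3.38, 2.30 and 2.28. Of the 8 genes compared between JUN and SMAD3, 3 were 2-fold higher in JUN and 1 in SMAD3, against 26.6% and 28.6% of all genes, so nothing is read from this count.

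**Figure D5:**
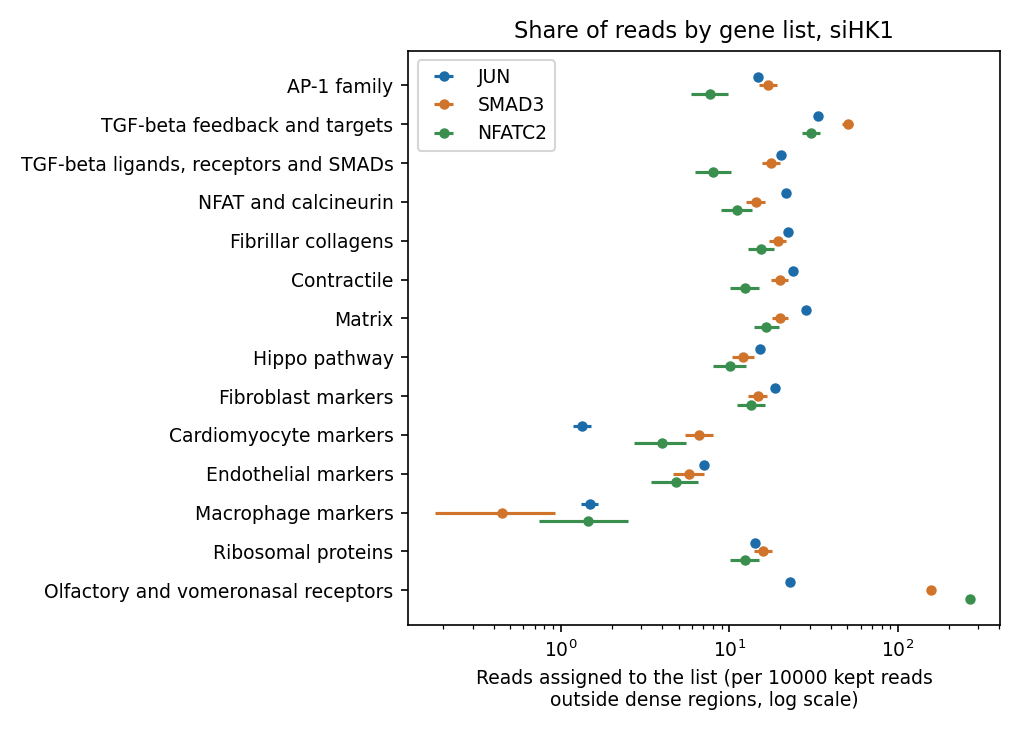
Reads assigned to each gene list per 10000 kept reads outside dense regions (x axis, log scale) in the siHK1 libraries, with 1 row per list and 1 point per factor; the bars are exact 95% Poisson intervals. TGF-β feedback genes stand at 33.6 in JUN, 50.3 in SMAD3 and 30.5 in NFATC2 (31.6, 26.03 and 11.02 on all kept reads), and olfactory and vomeronasal receptors at 22.8, 158 and 267.

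At genes of the myofibroblast the share was largest in JUN, except for the collagens once regions overlapping H3K9lc were left out too. Fibrillar collagens held 22.3 per 10000 reads in JUN, 19.4 (17.3 to 21.7) in SMAD3 and 15.4 (12.8 to 18.3) in NFATC2, and without H3K9lc regions 23.1, 23.7 and 20.9. Contractile genes held 23.9, 19.8 (17.7 to 22.2) and 12.4 (10.1 to 15.0). Other matrix genes held 28.6, 20.03 (17.9 to 22.4) and 16.6 (13.9 to 19.6), and genes of the Hippo pathway 15.1, 12.1 (10.4 to 13.9) and 10.1 (8.04 to 12.5). The intervals of SMAD3 and NFATC2 overlapped in all of these lists except the contractile genes, and those of JUN and SMAD3 met for the collagens alone. Of 13 matrix genes compared, 7 were at least 2-fold higher in JUN than in SMAD3 and 3 in SMAD3, with a median log2 ratio of 1.01, against 26.6% and 28.6% called and a median of 0.00 over all genes. Thbs2, a matricellular thrombospondin, held 5.26, 1.28 and 2.64, and Fbn1, the main fibrillin of microfibrils, 2.30, 3.06 and 2.88. Col5a1 held 5.05, 4.78 and 3.60. Myh9, a non-muscle myosin, stood apart from its list with 900 JUN, 177 SMAD3 and 41 NFATC2 reads, or 4.85, 11.3 (9.69 to 13.1) and 4.92 (3.53 to 6.68). Cald1, caldesmon, held 4.65, 2.04 and 3.84. In the Hippo list Tead1 held 5.87, 2.17 and 2.64, and Tead3 0.61, 2.23 and 3.72.

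Of the 12 genes the study names, Irf7 had no kept region in any of the 3 lists. Col1a1 held 707 JUN, 95 SMAD3 and 20 NFATC2 reads, or 3.81, 6.06 and 2.40 per 10000. Its most-read JUN region, of 278 reads, lay upstream of the start site, at -7032 bp, and overlapped its most-read SMAD3 region, of 23 reads. Smyd3, a lysine methyltransferase, held 598, 73 and 8 reads, and 1 place in its intron was kept for all 3 factors. Acta2, smooth muscle actin, held 78 JUN reads in 2 regions and 12 SMAD3 reads in 1 region, which overlapped at the start site, and no kept NFATC2 read, with 11 listed. Postn, periostin, held 388 JUN reads in 7 regions and no kept read of the others, with 3 SMAD3 and 19 NFATC2 reads listed.

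For the remaining study genes both reads and shares are given, since the libraries held different numbers of kept reads. Col3a1 held 391, 17 and 5 reads, or 2.11, 1.08 (0.63 to 1.74) and 0.60 per 10000 in JUN, SMAD3 and NFATC2. Col1a2 held 276, 14 and 0 reads, with shares of 1.49 in JUN and 0.89 (0.49 to 1.498) in SMAD3. Lox, a collagen cross-linking enzyme, held 374, 9 and 0 reads, with shares of 2.02 and 0.57 (0.26 to 1.09). Hk1, the target of the siRNA, held 523 JUN, 30 SMAD3 and 5 NFATC2 reads, with shares of 2.82, 1.91 (1.29 to 2.73) and 0.60, and its most-read JUN region, of 349 reads in an intron, overlapped its most-read SMAD3 region, of 20 reads. Cdk1 held 22, 8 and 0 reads, with a share of 0.12 in JUN and a higher one in SMAD3, 0.51 (0.22 to 1.01), and Slc40a1, the iron exporter, 8, 0 and 0. Axin2, a WNT feedback gene, held 383 JUN, 65 SMAD3 and 180 NFATC2 reads on all kept reads. Its single SMAD3 and NFATC2 regions lay in a dense intergenic place at chr11:109011646-109012183, 68025 bp from the start site, which was kept for H3K9lc as well. Outside it Axin2 held 126 JUN reads and no kept read of SMAD3 or NFATC2, so that its place among NFATC2 genes rested on this region.

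Cell type markers were set beside the label, with the limit that bound chromatin is not expression. All 11 fibroblast markers had a kept JUN region, 7 had a SMAD3 region and 8 an NFATC2 region, and they held 18.6, 14.7 and 13.4 per 10000 reads. Of 9 cardiomyocyte markers, 4, 3 and 2 had a kept region, and they held 1.34, 6.63 and 3.96, of which Myh6 gave 4.78 in SMAD3 and Ryr2 3.24 in NFATC2. The Myh6 value rests mostly on the place whose JUN and NFATC2 regions were named Mhrt and are outside the list, so the order of the factors in this list is not read. Of 6 endothelial markers, 6, 4 and 2 had a kept region, of 6 macrophage markers 3, 1 and 1, and of 70 ribosomal protein genes 51, 22 and 13. A kept JUN region was found at every endothelial marker and at every fibroblast marker. The JUN list reached 14424 symbols, against 8878 for SMAD3 and 6332 for NFATC2. The share of all annotated genes with a kept region was not measured, so nothing is read from these counts. Endothelial markers held 7.06, 5.74 and 4.80, with Erg at 1.61, 0.51 and 3.84 and Cdh5 at 1.85, 3.38 and 0. Macrophage markers held 1.49, 0.45 and 1.44, with Csf1r at 1.18, 0.45 and 1.44, and Cd68 at 0.24 in JUN alone. Genes that fibroblasts do not use served as a further comparison. Olfactory and vomeronasal receptors held 22.8 in JUN, 158 in SMAD3 and 267 in NFATC2, and after regions overlapping H3K9lc were left out as well, 16.9, 32.6 and 56.9. Much of the first values came from Olfr161 and Vmn1r2, 2 of 1160 symbols, which held 51.9 and 58.8 in SMAD3 and 116 and 92.2 in NFATC2, and whose most-read SMAD3 regions lay at -354759 and -105943 bp from the start site. Ribosomal protein genes held 14.2, 15.9 and 12.4, with Rps23 at 0.71, 0.77 and 2.28 and Rps29 at 1.35, 1.34 and 0.

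The lists also differed in how far they were called in the TGF-β libraries of the same antibodies. Of the kept siHK1 regions, 81.3% of JUN (81.0 to 81.7), 18.4% of SMAD3 (17.8 to 19.04) and 23.0% of NFATC2 (22.2 to 23.9) were also called with TGF-β alone. In the lowest quintile by reads these shares were 39.2%, 2.66% and 5.29%, and in the highest 98.3%, 52.5% and 69.1%. SMAD3 regions that were not called with TGF-β held a median of 7 reads, against 15 in those that were. Regions of SMAD3 shared with JUN only were called with TGF-β in 14.1% and those shared with NFATC2 only in 59.1%.

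Under the same rule the TGF-β libraries kept 63981 JUN, 19923 SMAD3 and 19568 NFATC2 regions. There, 20.8% of SMAD3 regions overlapped JUN (20.2 to 21.3), against 44.9% after HK1 knockdown, and the promoter share of SMAD3 regions was 15.8% (15.3 to 16.4) against 31.3%. For NFATC2 the overlap with JUN was 29.6% against 31.2%, and the promoter share 20.8% against 24.3%. The promoter share of JUN was 25.7% against 25.6%. SMAD3 thus differed most between the libraries on both measures, and with 1 library each the condition and the library cannot be told apart.

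H3K9lc overlapped a minority of the regions of each factor. It met 3.005% of JUN regions (2.85 to 3.17), 8.32% of SMAD3 regions (7.88 to 8.77) and 12.3% of NFATC2 regions (11.7 to 13.0), which held 8.51%, 56.6% and 72.1% of the kept reads. Outside dense regions it met 2.71%, 7.50% and 10.95% of the regions, with 3.14%, 18.1% and 26.4% of the reads. At promoters the shares were 2.18%, 4.23% and 5.88%, and in distal intergenic sequence 4.03%, 12.6% and 17.9%. Factor regions that overlapped H3K9lc held AP-1 letters in 15.9% for JUN, 4.24% for SMAD3 and 3.46% for NFATC2, below the shares of each whole list.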

How the data were processed

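CUT&Tag reads of mouse cardiac fibroblasts were aligned and peaks called by the authors (Bowtie2, GRCm39 and MACS2 in the methods; BWA 0.7.12 and mm10 in the submitters' processing notes). The transcript coordinates of the tables matched GENCODE vM21 in 45666 of 45666 transcripts found, so coordinates are given on GRCm38, counted from 1. The authors deposited raw read counts per region and, in another column, a 0 or 1 mark for a called peak. Each table lists 1 set of regions for both conditions of an antibody. Normalized values, ratios, p-values and calls deposited by the authors were not used. The tables hold no unassigned sample columns.

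Groups were taken from the library titles, with SI H3K9LC read as siHK1. Regions were compared by overlaps of at least 1 bp, and gene shares were reads per 10000 kept reads with a symbol. Ratios needed a mean share worth at least 10 reads in the library with fewer kept reads, with shares under 3 reads set to 3. Intervals are exact (Clopper-Pearson or Poisson, 95%). Motifs were counted on both strands. The calculations were run in Python 3.11.15 with numpy 2.4.6, pandas 2.3.3, scipy 1.17.1 and pysam 0.24.0, and were tested on simulated data.

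The members, gene lists and motifs were chosen with earlier results of these data known. Named genes were the 8 largest shares per factor, the 3 largest ratios per pair and direction, the genes the study names and 2 members of each list. Kinases of ribosomal protein S6 were left out of the ribosomal protein list. Dense regions and the alternatives without them were chosen after seeing the data.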

Additional observations from a re-analysis of the deposited data

How the results depend on the processing

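No paired analysis was possible because each antibody and condition has 1 library and no test was made. Of 81 alternatives, 24 stayed near the main value (within its interval for a share, within 1.5 times for a count) and 57 moved. The share of SMAD3 regions overlapping JUN was 65.7% at 10 reads or more, 70.1% at 20 or more, 42.5% with overlap of at least 50% of the shorter region, 29.0% in equal lists and 43.8% without dense or H3K9lc regions. NFATC2 with JUN gave 54.1%, 66.3%, 29.8%, 14.2% and 28.2%, and 30.2% without dense regions. NFATC2 with SMAD3 gave 54.5%, 76.5%, 22.1%, 22.3% and 19.4%, and 23.2% without dense regions. Restricting to chromosomes 1 to 19 and X left the 3 overlaps within their intervals. Promoter shares within 1 kb were 18.7% (JUN), 23.4% (SMAD3) and 15.8% (NFATC2), and weighted by reads 24.3%, 19.1% and 12.3%. At 10 reads or more they were 37.5% for SMAD3 and 27.7% for NFATC2, and weighted by reads outside dense regions 33.6% for SMAD3.

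Genes at least 2-fold higher numbered 1793 (JUN over SMAD3), 373 (SMAD3 over JUN), 1451 (JUN over NFATC2), 259 (NFATC2 over JUN), 290 (SMAD3 over NFATC2) and 115 (NFATC2 over SMAD3) when worth at least 20 reads. Within 3 kb of a start site they numbered 314, 522, 69, 171, 53 and 89, so that fewer genes could be compared and the larger side changed in each pair. Over all listed regions NFATC2 was higher than JUN for 1151 and than SMAD3 for 814. Without dense regions JUN was higher than SMAD3 for 1263 and than NFATC2 for 672, and SMAD3 than NFATC2 for 405; without dense or H3K9lc regions these were 936, 363 and 298. AP-1 letters were found in 17.4%, 4.53% and 3.72% of the central 100 bp of JUN, SMAD3 and NFATC2 regions, in 58.5%, 17.6% and 12.8% of whole regions, and in 34.5%, 9.95% and 5.84% at 10 reads or more; without dense or H3K9lc regions the share was 33.1% for JUN and 8.04% for NFATC2. Why each setting moved its value was not tested. The 5-read limit and the few reads of SMAD3 and NFATC2 regions bound what these lists can show.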
